A study of Mus musculus with 4 samples.

Results

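The glycolysis genes described here are 10 genes of glucose uptake and breakdown, namely *Slc2a1*, *Hk2*, *Gpi1*, *Aldoa*, *Tpi1*, *Gapdh*, *Pgk1*, *Pgam1*, *Eno1* and *Ldha*. They were taken from a table of 23361 genes by their symbols, and all 10 had a row. The measurements are whole transcriptome sequencing of Early T Lineage Progenitors (ETP), the most immature T cell precursors of the thymus. Old ETP came from 72 week old mice and young ETP from mice 4 to 6 weeks of age, with 2 libraries per age. All mice were female and of the strain C57BL6, and the labels give age as the only difference between the groups. The sort kept cells that were Lin- CD44+ CD25- CD117+, which were lysed directly. The table names the old condition 20m, which is not the age on the labels. No source used here states that separate mice gave the libraries of an age, and each p-value therefore rests on a spread between libraries that may be technical.

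Glycolysis splits glucose into pyruvate in the cytosol and yields ATP without oxygen. *Slc2a1* encodes GLUT1, a glucose transporter of the plasma membrane. *Hk2* encodes hexokinase 2, which traps glucose in the cell as glucose-6-phosphate, and *Gpi1* encodes the isomerase that turns this into fructose-6-phosphate. After phosphofructokinase has added a second phosphate, the products of *Aldoa* and *Tpi1* make glyceraldehyde-3-phosphate. The products of *Gapdh*, *Pgk1*, *Pgam1* and *Eno1* carry it on to phosphoenolpyruvate, with ATP formed at the step of *Pgk1*. Pyruvate kinase then makes pyruvate, and *Ldha* encodes the subunit of lactate dehydrogenase that predominates in tissues that make lactate. Dividing lymphocytes and their precursors are known for high rates of glycolysis. HIF-1, which is formed by the products of *Hif1a* and *Arnt*, and MYC are known activators of many of these genes. The 10 genes hold no phosphofructokinase and no pyruvate kinase, so genes of these 2 steps are given beside them.

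The promoters of 4 of the genes are shown because they belong to the highest genes of the set per length (*Gapdh* and *Ldha*) and to those whose levels did not overlap between the ages (*Hk2* and *Pgk1*). Each window runs from 250 bases before to 50 after a RefSeq start on GRCm38.p6, read 5′ to 3′ on the strand of the gene. Capitals mark the core of the HIF-1 recognition motif (ACGTG or GCGTG, either strand) and the E-box CACGTG bound by MYC, which holds the HIF-1 core within it. The *Hk2* window is chr6:82774405-82774704 on the minus strand, and that of *Gapdh* is chr6:125165724-125166023, also minus. The *Pgk1* window is chrX:106186850-106187149 on the plus strand, and that of *Ldha*, from the first of its 2 starts in RefSeq, is chr7:46845554-46845853, also plus.
Hk2: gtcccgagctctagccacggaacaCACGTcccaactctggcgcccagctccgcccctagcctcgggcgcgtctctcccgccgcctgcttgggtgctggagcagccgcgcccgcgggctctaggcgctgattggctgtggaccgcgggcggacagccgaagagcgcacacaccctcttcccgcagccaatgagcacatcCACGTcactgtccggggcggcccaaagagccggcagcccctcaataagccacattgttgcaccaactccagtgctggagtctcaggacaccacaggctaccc
Pgk1: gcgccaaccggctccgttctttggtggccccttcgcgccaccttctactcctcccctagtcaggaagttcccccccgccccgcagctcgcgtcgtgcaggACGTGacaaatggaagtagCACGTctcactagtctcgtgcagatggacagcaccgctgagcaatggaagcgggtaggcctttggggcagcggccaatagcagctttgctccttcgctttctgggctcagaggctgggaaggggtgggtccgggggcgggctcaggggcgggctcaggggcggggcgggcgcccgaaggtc
Gapdh: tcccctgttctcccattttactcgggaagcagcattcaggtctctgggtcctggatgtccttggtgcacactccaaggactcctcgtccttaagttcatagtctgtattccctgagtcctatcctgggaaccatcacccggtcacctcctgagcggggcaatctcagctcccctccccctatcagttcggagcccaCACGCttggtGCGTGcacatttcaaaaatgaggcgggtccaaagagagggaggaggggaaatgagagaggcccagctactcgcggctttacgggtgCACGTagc
Ldha: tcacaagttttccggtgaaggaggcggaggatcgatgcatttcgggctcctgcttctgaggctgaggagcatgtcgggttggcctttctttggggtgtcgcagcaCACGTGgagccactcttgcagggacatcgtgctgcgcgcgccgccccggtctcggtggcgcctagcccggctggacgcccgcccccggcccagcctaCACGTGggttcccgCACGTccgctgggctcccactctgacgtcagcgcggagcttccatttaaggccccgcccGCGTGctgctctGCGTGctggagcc

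The core was found in separate stretches, overlapping matches counting as 1, and *Hk2* and *Pgk1* had 2 stretches each, *Gapdh* had 3 and *Ldha* had 5. Of all 32851 promoter windows, 17.3% held at least 2, 6.55% at least 3 and 0.767% at least 5 such stretches. The E-box occurred in the *Ldha* window alone among the 15 windows of the 10 genes, with 2 copies, and in 7.15% of all windows. At least 1 core lay in a window of 8 of the 10 genes, the others being *Gpi1* and *Tpi1*. By window this was 12 of 15, some of which overlap within a gene, against 43.8% of all windows. These are matches of letters in a window, and no binding was measured.

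The genes had levels far apart from each other, and the same order held in nearly all libraries. Per length, as FPKM (fragments per kilobase of transcript, scaled to depth), the means over all 4 libraries were 530.1 for *Gapdh*, 146 for *Ldha*, 79.2 for *Aldoa*, 49.8 for *Gpi1*, 35.8 for *Pgk1* and 32.7 for *Tpi1*. The low end was formed by *Pgam1* at 14.0, *Eno1* at 7.85, *Slc2a1* at 5.46 and *Hk2* at 3.81 FPKM. The transporter and hexokinase genes, which act first, thus stood lowest, and *Hk2* lay at percentile 33.2 of the tested genes by mean FPKM, against 99.4 for *Gapdh*. All neighbours in this order kept their places in all libraries except *Pgk1* and *Tpi1*, which changed places in young replicate 1. FPKM kept a difference in depth between libraries, so levels between libraries are compared as normalized CPM, which are fragments scaled to a common library size by TMM.

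Between the ages, none of the 10 genes passed the test after adjustment, with *Hk2*, of the hexokinase step, closest to it and higher in old ETP. edgeR's quasi-likelihood test with Benjamini-Hochberg adjustment over 10080 genes called 0 of the 10 at an adjusted p under 0.05. It called 0.0% of all tested genes, so this count is no result about glycolysis. At an unadjusted p under 0.05 there was 1 of the 10, *Hk2*, higher in old ETP, as were 4.65% of all tested genes. DESeq2 also called 0 of the 10, with 2.23% of all genes called. The estimates were higher in old ETP for 7 genes and lower for 3, with a median log2 fold change of 0.11, against −0.03 over all tested genes. On the log2(FPKM + 1) scale of limma the split was 2 higher and 8 lower, with the median of the 10 at −0.17 and that of all genes at −0.27. With the scaling factors of the authors, which put the median of all genes at −0.32, the median of the 10 was −0.20 and *Aldoa*, *Gapdh*, *Pgam1*, *Eno1* and *Ldha* also took negative signs. In these settings the median of the 10 lay above that of all genes, but without young replicate 2 it lay below it (−0.14, against 0.006 for all genes).

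*Hk2* had the largest estimate of the 10 genes. Its level was 78.8 and 66.7 normalized CPM in old replicates 1 and 2, against 50.9 and 37.2 in young replicates 1 and 2. Both old libraries were above both young libraries, which was also the case for 16.1% of all tested genes. The means were 72.7 ± 8.59 in old and 44.0 ± 9.68 in young ETP (SD, n = 2 each), a ratio of 1.65. The log2 fold change of old over young was 0.72 (standard error 0.29, 95% interval 0.01 to 1.44), with an adjusted p of 0.890 in edgeR. *Hk2* rests on 948 and 306 fragments in old and 869 and 232 in young ETP. On the log2(FPKM + 1) scale its estimate was 0.34, where the median of all genes was −0.27.

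*Slc2a1*, through which glucose enters, was at 46.7 and 36.6 normalized CPM in old and 37.2 and 25.0 in young ETP. The range of the old libraries overlapped that of the young ones. The log2 fold change was 0.42 (standard error 0.34, 95% interval −0.42 to 1.27). This interval holds values on both sides of 0, so neither direction can be read from these libraries.

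The next enzymes of the pathway act on sugars of 6 carbons and split them. *Gpi1* was at 408 and 312 normalized CPM in old and 415 and 341 in young ETP, and *Aldoa* at 345 and 218 in old and 316 and 220.2 in young ETP. In both genes the libraries of each age lay further apart than the means of the ages. *Tpi1*, whose product interconverts the triose phosphates, was at 135 and 89.5 in old and 164 and 103 in young ETP. The log2 fold changes were −0.07 for *Gpi1* (95% interval −0.79 to 0.65), 0.07 for *Aldoa* (−0.81 to 0.95) and −0.25 for *Tpi1* (−1.15 to 0.66).

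*Gapdh*, which oxidizes glyceraldehyde-3-phosphate, was at 1627 and 1415 normalized CPM in old and 1659 and 1369 in young ETP. The means were 1521 ± 149.9 in old and 1514 ± 205 in young ETP (SD, n = 2 each), with a log2 fold change of 0.0067 (95% interval −0.76 to 0.77). These were the closest means of the 10 genes.

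*Pgk1*, which encodes the first enzyme of the pathway to form ATP, was the only gene of the 10 whose old libraries were both below the young ones. It was at 167 and 121 normalized CPM in old and 173 and 179 in young ETP. The log2 fold change was −0.29 (standard error 0.28, 95% interval −0.98 to 0.41), with an adjusted p of 0.9995 in edgeR. The higher old library lay close to the lower young one, and 15.5% of all tested genes had both old libraries below both young ones.

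Downstream, *Pgam1* was at 72.7 and 60.8 normalized CPM in old and 72.3 and 47.4 in young ETP. *Eno1* was at 31.0 and 45.7 in old and 40.5 and 23.7 in young ETP, and it was the only gene of the 10 that was higher in replicate 2 than in replicate 1 of the old ETP. *Ldha* was at 659 and 556 in old and 673 and 397 in young ETP. In all 3 genes the ages overlapped, and young replicate 2 was the lowest of the 4 libraries. The log2 fold changes were 0.16 for *Pgam1* (95% interval −0.62 to 0.93), 0.25 for *Eno1* (−0.74 to 1.24) and 0.18 for *Ldha* (−0.69 to 1.06).

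**Figure D1:**
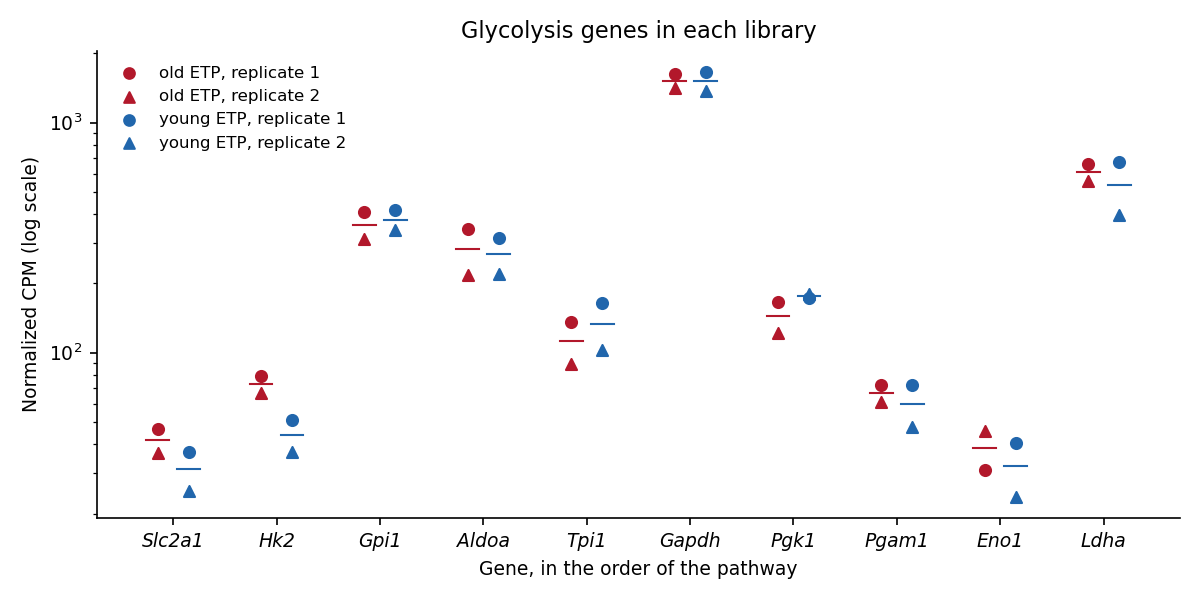
Normalized CPM (log scale) of the 10 glycolysis genes in the order of the pathway, with old ETP left of young ETP, a point for each library and a line at the mean of each age. *Hk2* is the only gene with both old libraries (78.8 and 66.7) above both young libraries (50.9 and 37.2), and *Pgk1* the only one with both below.

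Libraries of the same age also differed in the levels of the genes. In 9 of the 10, all but *Hk2*, the higher of the 2 libraries of an age exceeded the lower, in at least 1 age, by a larger factor than the means of the ages differed by. This sets the larger of 2 ranges against a single ratio of means. The share over all tested genes was not computed, so the count is no result about glycolysis. Replicate 1 exceeded replicate 2 in 9 of the 10 genes in old ETP, all but *Eno1*, and in 9 of the 10 in young ETP, all but *Pgk1*. The median log2 difference of replicate 1 minus replicate 2 over the 10 genes was 0.30 in old and 0.54 in young ETP, against 0.02 and −0.04 over all tested genes. Together the 10 genes took 0.363% and 0.277% of all fragments in old replicates 1 and 2, against 0.369% and 0.267% in young replicates 1 and 2. The share was thus high in replicate 1 and low in replicate 2 of both ages.

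Depth and the share of other abundant RNAs moved with the replicate number as well. Old replicates 1 and 2 held 11816478 and 4839341 fragments, and young replicates 1 and 2 held 16658864 and 6414915. Fragments of the 76 genes that encode cytosolic ribosomal proteins made up 8.88% and 4.91% of the total in old and 9.09% and 5.37% in young ETP. The nuclear RNA *Malat1* took 0.983% and 1.60% in old and 0.475% and 0.895% in young ETP. The part of these differences in the levels of the glycolysis genes was not tested.

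Some of the genes have near copies elsewhere in the genome, whose reads the counting could have split. With transcripts of GENCODE M21 on GRCm38 as the query, 78 other genes matched *Gapdh* at 95% identity or more over at least 200 bases. Only 3 of these 78 had a row in the table, and they held at most 20 fragments in a library, against 6494 or more for *Gapdh*. Reads drawn to the others cannot be seen here. *Eno1* matched *Eno1b*, a near copy without introns listed in the table as *Gm5506*, at 99.5% over 1736 bases. *Gm5506* held 2 and 1 fragments in old and 2 and 0 in young ETP, and *Eno1* was the only one of the 10 genes with fractional fragments. Its level is therefore uncertain. *Pgk1* and *Ldha* had 4 such copies each, *Gpi1*, *Tpi1* and *Pgam1* had 1 each, and *Slc2a1*, *Hk2* and *Aldoa* had 0. None of the copies of these 5 genes had a row, so reads drawn to them cannot be seen either. *Pgk1* matched a copy at 100% identity over 1255 bases, and *Pgam1* matched its copy at 100% over 765. Exons of *Slc2a1*, *Gpi1*, *Aldoa*, *Tpi1* and *Gapdh* overlap a gene on the other strand by 25 to 741 bases, and use of strand in the counting is not stated in the sources used here. *Hk2* lies on chr6:82725025-82774454 on the minus strand and shares no exonic base with another gene.

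In 5 of 10 steps a single gene held over 90% of the FPKM in every library, namely *Aldoa*, *Gapdh*, *Pgk1*, *Pkm* and *Ldha*. *Aldoa* held 99.3% and 96.8% of the FPKM of the aldolases in old and 98.9% and 96.7% in young ETP. The sperm gene *Gapdhs* had 0 fragments in all 4 libraries, as had the testis gene *Ldhc*, and a count of 0 allows up to 3 fragments, or 0.176 to 0.654 normalized CPM. *Pkm*, which encodes the pyruvate kinase of most tissues, held at least 99.9% of its step in every library, with a mean of 58.0 FPKM. It was at 439.9 and 222 normalized CPM in old and 466 and 248 in young ETP. *Eno1* held 85.4% and 75.0% of the enolases in old and 85.6% and 70.5% in young ETP, with *Eno3*, the enolase of muscle, next. *Pgam1* shared its list with *Pgam5*, which encodes a mitochondrial phosphatase of the same family, and held 47.4% and 48.6% in old and 47.0% and 37.9% in young ETP.

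The makeup of the phosphofructokinase step, which commits fructose-6-phosphate to glycolysis, stood apart. *Pfkp*, which encodes the platelet isozyme, was at 64.6 and 71.3 normalized CPM in old and 16.1 and 19.1 in young ETP. The old libraries lay far above the young ones, with means of 68.0 ± 4.74 in old and 17.6 ± 2.102 in young ETP (SD, n = 2 each), a ratio of 3.86. Both old libraries were above both young ones in 16.1% of all tested genes. *Pfkp* rests on 777.379 and 327.418 fragments in old and 275.783 and 119.309 in young ETP, which are fractional in every library. Near copies and exon overlaps were looked up for the 10 genes only, so the level of *Pfkp* is uncertain in this respect. The log2 fold change was 1.95 (standard error 0.28, 95% interval 1.24 to 2.66), larger than that of any of the 10 genes. edgeR's adjusted p was 0.325, a value shared with other genes and the smallest of all tested, and the unadjusted p was 6.56e-04. DESeq2 called *Pfkp* with an adjusted p of 4.07e-05, and edgeR did so with no filter on low values (1.42e-04) and without old replicate 1 (0.0446), where old ETP had 1 library left. It was not called without any of the other 3 libraries (0.323 to 0.585), with median-of-ratios (0.394) or upper-quartile factors (0.272) or the factors of the authors (0.862), or by limma on either FPKM scale (0.849 and 0.847, with log2 fold changes of 1.24 and 1.61). Both other isozymes, those of liver (*Pfkl*) and muscle (*Pfkm*), had lower estimates in old ETP, and neither passed. *Pfkl* was at 46.4 and 41.0 normalized CPM in old and 47.8 and 52.2 in young ETP, and *Pfkm* at 25.5 and 13.9 in old and 28.8 and 25.1 in young ETP. As a share of the FPKM of the step, *Pfkp* held 42.6% and 52.6% in old and 14.7% and 17.2% in young ETP. *Pfkl* held 32.9% and 32.5% in old and 47.0% and 50.6% in young ETP.

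In the last step, the minor isozyme gene differed more than the major one. *Ldhb*, which encodes the lactate dehydrogenase subunit of heart, was at 11.1 and 8.06 normalized CPM in old and 23.6 and 22.9 in young ETP. Both old libraries were below both young ones, as in 15.5% of all tested genes. The log2 fold change was −1.27 (standard error 0.36, 95% interval −2.16 to −0.38), with an adjusted p of 0.556 in edgeR. *Ldhb* held 2.17% and 1.85% of the FPKM of the step in old and 4.40% and 6.94% in young ETP, while *Ldha* held 97.5% and 97.6% in old and 95.1% and 92.0% in young ETP.

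At the entry, *Hk2* held 52.0% and 47.6% of the hexokinase FPKM in old and 47.9% and 45.5% in young ETP. *Hk1*, the hexokinase of most tissues, held 39.0% and 33.2% in old and 42.0% and 49.1% in young ETP, and its log2 fold change was 0.32 (95% interval −0.42 to 1.07). *Slc2a1* held 48.1% and 37.6% of the FPKM of the glucose transporters in old and 44.2% and 31.5% in young ETP. *Slc2a3*, which encodes GLUT3, was next, at 45.7 and 35.1 normalized CPM in old and 43.9 and 42.0 in young ETP. The low *Slc2a6* was at 6.98 and 8.06 normalized CPM in old and 2.69 and 3.20 in young ETP, on 20 to 84 fragments a library, and it did not pass (adjusted p = 0.715 in edgeR). Plotted by library, *Pfkp* held the largest share of its step in old ETP and *Pfkl* in young ETP, while the shares of *Hk2* overlapped between the ages.

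**Figure D2:**
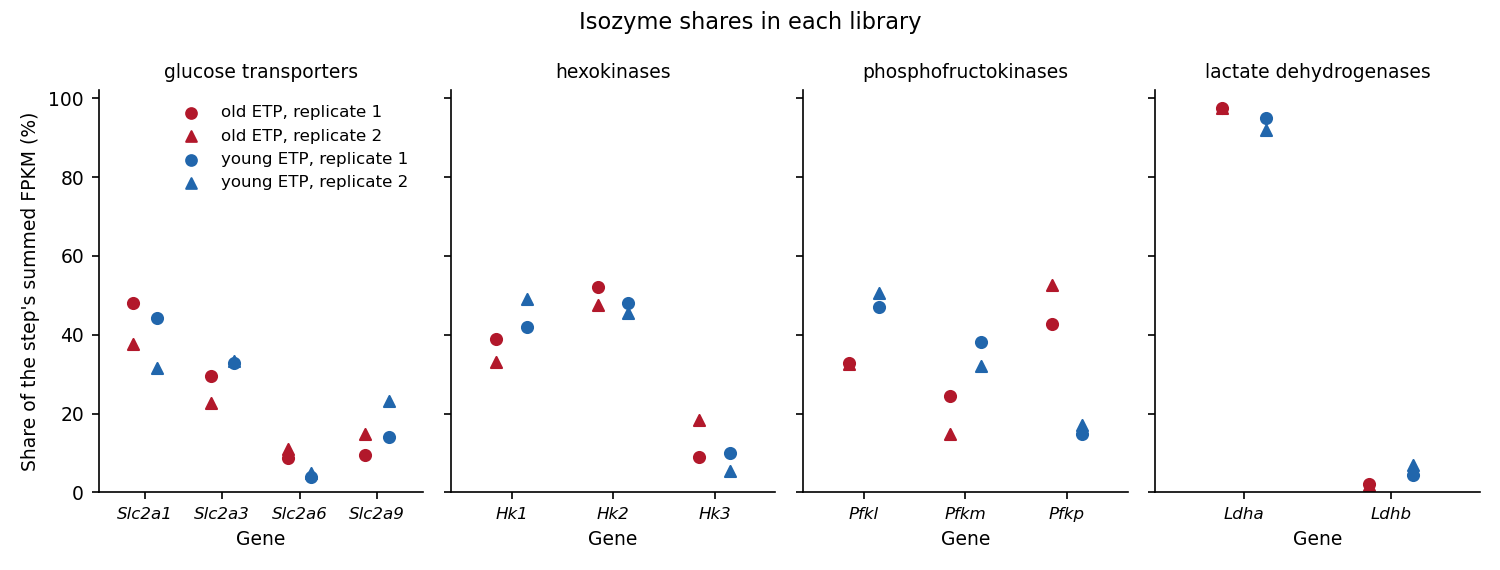
Share of the summed FPKM of a step (%) held by each gene, with old ETP left of young ETP and a point for each library, for glucose transporters, hexokinases, phosphofructokinases and lactate dehydrogenases. *Pfkp* holds 42.6% and 52.6% in old and 14.7% and 17.2% in young ETP, whereas the shares of *Hk2* lie between 45.5% and 52.0% in all 4 libraries.

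**Figure D3:**
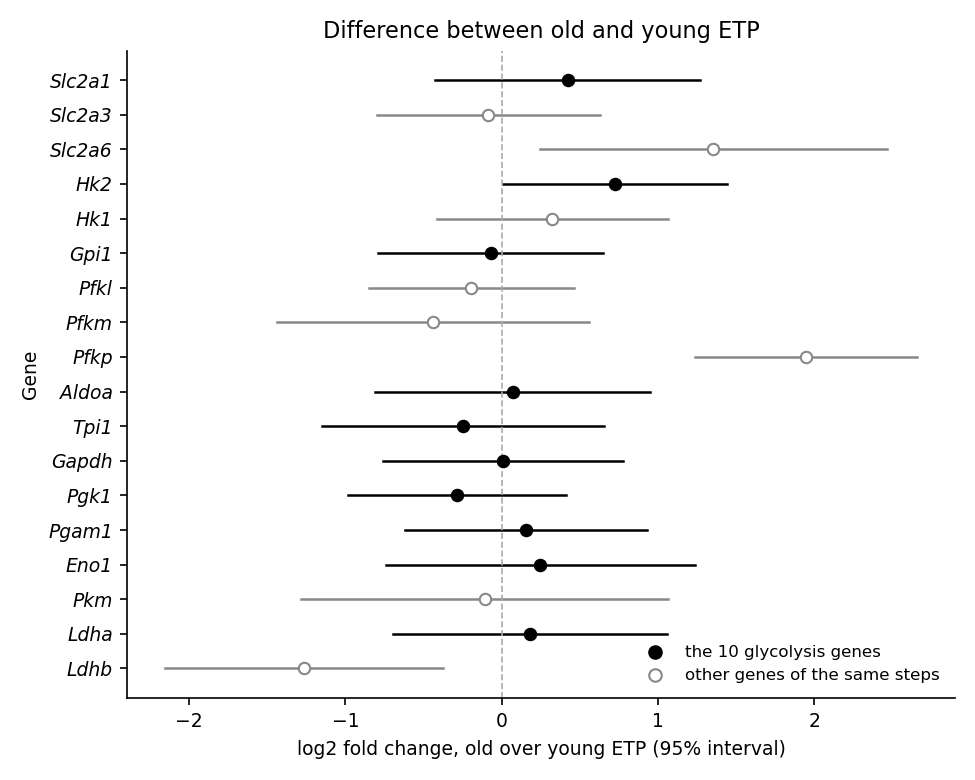
Log2 fold change of old over young ETP with its 95% interval from edgeR for the 10 glycolysis genes (filled) and other genes of the same steps (open), in the order of the pathway. The interval of *Hk2* starts at 0.01, and the other 9 filled intervals include 0, while those of *Pfkp*, *Slc2a6* and *Ldhb* lie to a side of it.

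Genes that control the pathway or take over its products are described from lists chosen by function. edgeR called 0 genes in each of these lists, and DESeq2 called none of those named in this paragraph. Of 20 tested regulators of glycolysis, the estimate was higher in old ETP for 12 and lower for 8 (median log2 fold change 0.10), and 1 had an unadjusted p under 0.05. On the log2(FPKM + 1) scale this split was 4 higher and 16 lower, with a median of −0.17. *Hif1a* was at 78.2 and 94.99 normalized CPM in old and 101 and 128 in young ETP, and *Myc* at 424 and 402 in old and 503 and 527 in young ETP. The old libraries of both genes were below the young ones, and neither gene passed (adjusted p = 0.9995 in edgeR for each). Of the 20 regulators, 4 had both old libraries below both young ones and 4 had both above. This was the case for 15.5% and 16.1% of all tested genes. *Vhl*, whose product marks the HIF-1 subunit for destruction, was at 36.2 and 53.8 in old and 22.6 and 20.7 in young ETP, with a log2 fold change of 1.05 (standard error 0.33) and an adjusted p of 0.683. *Pfkfb3*, which encodes an enzyme that makes the activator fructose-2,6-bisphosphate, was at 82.6 and 129 in old and 67.5 and 71.4 in young ETP (log2 fold change 0.61, standard error 0.31). Of 13 other tested targets of hypoxia, 8 had higher and 5 lower estimates, with a median of 0.05, and on the log2(FPKM + 1) scale 4 and 9, with a median of −0.18. Among them *Ndrg1*, a stress gene, was at 105 and 95.6 in old and 53.7 and 62.6 in young ETP, with an adjusted p of 0.699.

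Among genes of neighbouring pathways, more had an estimate below 0, that is, lower in old ETP, than above it, and the median of all tested genes was −0.03. Of 11 tested genes of pyruvate dehydrogenase, its kinases and phosphatases, 1 had a higher and 10 a lower estimate, with a median log2 fold change of −0.19. *Pdk2*, a kinase that shuts off pyruvate dehydrogenase, was at 19.8 and 20.5 normalized CPM in old and 29.3 and 41.6 in young ETP, with a log2 fold change of −0.81 (standard error 0.33) and an adjusted p of 0.923 in edgeR. *Pdha1*, which encodes the catalytic subunit, was at 189.8 and 139 in old and 229 and 231 in young ETP. For 18 genes of the citric acid cycle the median was −0.10, with 6 higher and 12 lower, and for 10 of the pentose phosphate pathway it was −0.06, with 4 higher and 6 lower. Of 11 genes of gluconeogenesis and glycogen, 3 were higher and 8 lower, with a median of −0.09. Of 5 genes for transport of lactate and pyruvate, 1 was higher and 4 were lower, with a median of −0.27. *Slc16a1*, which encodes the lactate transporter MCT1, was at 72.5 and 33.1 in old and 82.9 and 80.4 in young ETP. On the log2(FPKM + 1) scale these 5 medians were −0.36, −0.37, −0.31, −0.29 and −0.56, against −0.27 for all genes. None of these genes had an unadjusted p under 0.05 in edgeR, and DESeq2 called 0 of them.

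The genes of other cells and of the cell cycle were measured in the same libraries. In bulk samples, fewer cells of a type and less RNA per cell cannot be told apart. *Kit*, which encodes CD117, was at 936 and 945 normalized CPM in old and 764 and 1096 in young ETP, *Cd44* at 636 and 519 in old and 496 and 517 in young ETP, and *Il2ra*, which encodes CD25, at 31.8 and 22.9 in old and 26.3 and 39.9 in young ETP. These 3 gate genes did not pass edgeR. They belong to a list of 13 genes of ETP gate and identity, all tested, of which edgeR and DESeq2 called 0. In that list 9 genes had a negative log2 fold change and 4 a positive one, and the middle value was −0.27. Both old libraries lay below both young ones in 5 of the 13 and above them in 2. Over all tested genes these shares were 15.5% and 16.1%. Of 14 tested markers of dendritic cells, the estimate was higher in old ETP for 13 (median log2 fold change 3.78), and the summed level of the list was 6644 and 21449 normalized CPM in old and 998 and 1554 in young ETP. DESeq2 called 12 of them and edgeR 0, with 12 at an unadjusted p under 0.05. Of 14 markers of NK and innate lymphoid cells, 8 were tested, since *Klrb1c*, *Gzma*, *Prf1*, *Eomes*, *Tbx21* and *Zbtb16* fell outside the filter. Of the 8, 7 had higher estimates (median log2 fold change 2.79). The summed level of the list was 436 and 762 in old and 267 and 299.7 in young ETP. DESeq2 called 5 of these 8 higher and edgeR 0, with 5 at an unadjusted p under 0.05. *Nkg7*, the highest gene of that list, was at 231 and 158 in old and 220.3 and 214 in young ETP, and *Tbx21* had 0 fragments in both young libraries. No marker of dendritic cells was at 0 in all 4 libraries. In both lists, a marker under 1 FPKM in both young libraries was tested only if both old libraries reached 1 FPKM. The filter thus favoured markers higher in old ETP, and the counts and medians of both lists carry that bias. Over all tested genes, DESeq2 called 2.23%, and 4.65% were higher in old ETP at an unadjusted p under 0.05 in edgeR. Of 9 tested markers of macrophages, monocytes and neutrophils, 4 had higher and 5 lower estimates, and of 6 tested markers of later T cells 4 had higher and 2 lower ones. DESeq2 called 1 gene in each of these 2 lists, *Cd68* and *Cd3e*, both higher in old ETP. The estimates of all 20 tested genes of proliferation were lower in old ETP (median −0.38). edgeR and DESeq2 called 0 of these 20, with 0 at an unadjusted p under 0.05 in edgeR. Both old libraries were below both young ones in 5 of the 20, against 15.5% of all tested genes. *Mki67*, the highest gene of this list, was at 353 and 1045 normalized CPM in old and 981 and 868 in young ETP. The old library with the higher dendritic sum, replicate 2, had the lower level of *Hk2* and the higher level of *Pfkp* of the 2 old libraries. The part of these other cells in the values of *Hk2*, *Pfkp* and *Ldhb* was not tested.

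*Gapdh* is also the gene against which the study measured *Hmga2* by quantitative PCR, so the levels were set against it in each library. The log2 ratio of *Hmga2* to *Gapdh*, from fragments, was −10.2 and −8.02 in old and −4.18 and −4.40 in young ETP, a difference of −4.81 between the means. With the mean of 5 other common references (*Actb*, *B2m*, *Hprt*, *Ppia* and *Ywhaz*) in place of *Gapdh*, the difference was −4.95. The old libraries lay far apart on both scales, so neither difference is precise. The SD of the *Hmga2* ratio was 1.52 in old and 0.15 in young ETP against *Gapdh*, and 1.27 and 0.45 against the 5 references. *Gapdh* itself differed from these 5 references by a log2 of −0.14 between old and young ETP. The ratios of old to young among the references were more uneven. *Actb*, which encodes cytoplasmic actin, was at 4479 and 7311 normalized CPM in old and 2855 and 3219 in young ETP, and its log2 ratio to *Gapdh* was 0.91 higher in old ETP. *Gusb*, which encodes a lysosomal enzyme, was 0.82 higher against *Gapdh*, and *Hprt*, of purine salvage, was 0.46 lower. *Hk2* was 0.73 higher against *Gapdh* and 0.58 higher against the 5 references, and *Pgk1*, itself used as a reference, was −0.32 and −0.46 on the same scales.

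**Figure D4:**
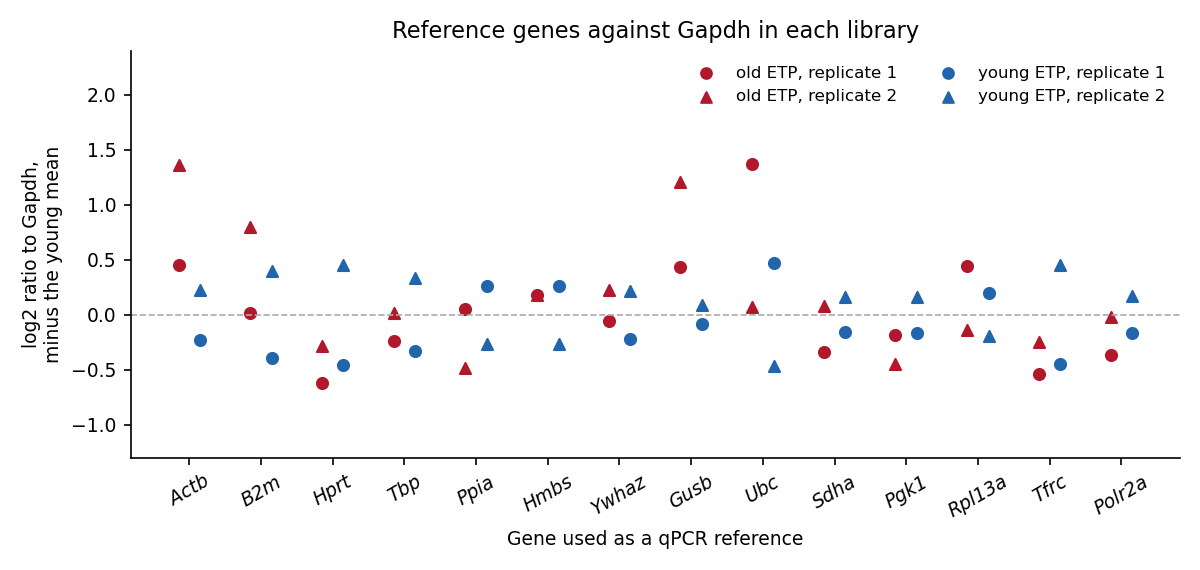
Log2 ratio of 14 genes used as quantitative PCR references to *Gapdh* in each library, minus the mean of the young libraries, with old ETP left of young ETP and a point for each library. *Actb* and *Gusb* are above the young libraries in both old libraries, while most of the others overlap between the ages.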

How the data were processed

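RNA of sorted ETP was sequenced in 4 libraries, 2 old and 2 young. Before deposit, the authors aligned reads with STAR 2.3.0 to GRCm38 (mm10), and the processing notes of the submitters list HTSeq 0.5.4p3, DESeq 1.12.1, Cuffdiff and Cufflinks 2.1.1 too. The deposited table is laid out as Cuffdiff writes it, with 1 row per gene and library. The estimated counts, which the authors assigned to genes, are in fragments, 95.7% to 96.1% of them whole numbers. The scaled signal of the authors multiplies each fragment count by a library factor (0.824 and 1.37 in old, 0.723 and 1.20 in young). Its FPKM values are those of the authors, per length, and their sums followed depth (230420 and 122998 in old, 281542 and 135313 in young). Counting by strand, multiple alignments and filters are not given in the sources used here. Libraries are numbered 1 and 2 for the table's 0 and 1, and which of the 2 labelled samples of an age is which library is not settled by the labels.

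Rounded fragments were normalized by TMM and tested with edgeR 4.0.16 (quasi-likelihood, age as the only term, R 4.3.3), with Benjamini-Hochberg adjustment, a threshold of 0.05 and 95% intervals from the fit. Tested were the 10080 genes whose FPKM reached 1 in 2 or more libraries, all 10 glycolysis genes among them. Alternatives were DESeq2 1.42.0, other scaling factors, a filter of 5 FPKM or of 1 fragment in all libraries together, limma 3.58.1 on log2(FPKM + 1) and log2(FPKM + 0.1), the replicate number as a term, and each library left out in turn. The scaling factors of the authors were added as an alternative after seeing the data. The libraries of an age differed by more than sampling noise (chi-square per gene 83.3 between the old, 71.1 between the young), so no pair looked like copies of 1 library. This does not show that they are biological replicates. Intervals and limits for a count of 0 cover counting error or library spread only, and copies made by PCR are not independent molecules. The edgeR steps were tested on simulated data.

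The 10 genes and the 29 lists, written from general knowledge of the pathways and cell types, were chosen with earlier results of these data known. Named were the 10 genes, the highest isozyme per step, from each list up to 2 genes with the highest level and up to 2 with the smallest p, the gate genes, *Malat1* and *Hmga2*. Genes with 0 fragments and *Tbx21* were named after their values were seen. Promoters came from RefSeq and gene positions and copies from GENCODE M21, both on GRCm38.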

Additional observations from a re-analysis of the deposited data

How the results depend on the processing

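The counts of glycolysis genes past the threshold stayed at 0 in each direction under all alternatives except the replicate block, where 1 gene was called higher. This was *Hk2*, with a log2 fold change of 0.73 and an adjusted p of 0.0305 in edgeR. The same-numbered libraries deviated together (correlation 0.734, which with 2 libraries per age is a single value), but the labels do not pair them and 2 pairs are too few to settle it. With the replicate block 578 genes were called higher and 199 lower, against 0 and 0 without it. *Pfkp* (adjusted p = 7.57e-05), *Ldhb* (0.0153) and *Actb* (5.85e-04) were then past the threshold as well. Without old replicate 1, edgeR called 218 genes higher and 3 lower, with no filter on low values 474 and 34, and DESeq2 210 and 15.

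The median log2 fold change of the 10 genes was −0.17 with limma on log2(FPKM + 1), −0.17 with log2(FPKM + 0.1) and −0.20 with the factors of the authors, chosen after seeing the data. On these scales the median of all genes was −0.27, −0.33 and −0.32, below that of the 10 genes each time. In the same order of settings, *Gapdh* was at −0.29, −0.29 and −0.30, *Aldoa* at −0.23, −0.24 and −0.21, *Pgam1* at −0.11, −0.11 and −0.18, *Eno1* at −0.031, −0.014 and −0.19, and *Ldha* at −0.0672, −0.0669 and −0.17. *Gapdh* was also at −0.0325 with upper-quartile factors and at −0.0005 with no filter. With a library left out, where an age with 1 library was given the spread of the other age, the median ran from −0.14 to 0.42. The log2 fold changes ran from −0.13 to 0.15 for *Gapdh*, −0.27 to 0.36 for *Aldoa*, −0.11 to 0.49 for *Pgam1*, −0.0905 to 0.69 for *Eno1*, −0.15 to 0.61 for *Ldha*, −0.24 to 0.0803 for *Gpi1*, −0.54 to 0.13 for *Tpi1*, −0.25 to 0.0637 for *Slc2a3* and −0.66 to 0.42 for *Pkm*. *Slc2a1* and *Hk2* kept positive signs and *Pgk1* a negative sign in all alternatives they were part of. *Hk2*, *Pfkp*, *Pfkm*, *Hk1*, *Slc2a6* and *Slc2a3* were outside the filter of 5 FPKM. The cause of these shifts was not tested. Depth limits the low genes most, such as *Slc2a6* with 20 fragments in young replicate 2.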
